A study of Mus musculus with 12 samples.

Results

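The core genes of the mTOR complexes and their close regulators were followed in mouse 3T3 cells treated with Shld1. These are Mtor, Rptor, Rictor and Mlst8, which encode the kinase and its main partners, Tsc1, Tsc2 and Rheb upstream, and Rps6kb1, Rps6kb2 and Eif4ebp1 downstream. They were picked by name: every probe was taken whose annotated symbol is one of these 10. Named probes were found for 9 of the 10, out of 16969 genes named on the array, with 17 of its 38784 probes, and all 17 were tested. Rps6kb1 is not analysed here, as no probe carried its name.

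RNA came from 3T3 cells, an established fibroblast line, in 4 groups of 3 samples: control cells and cells given Shld1 at 10 nM, 100 nM or 1 µM. This ligand was made to bind a mutated form of FKBP12, and it protects proteins fused to that domain from degradation. The labels do not say whether these cells carried such a fusion, how long they were treated or what the controls received. Each of the 12 arrays set 1 sample, labelled with Cy5, against a commercial mouse reference RNA labelled with Cy3, so every value is a log2 ratio of sample over reference. Above 0, a transcript was more abundant in the cells than in the reference mixture, relative to the median probe of that array.

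mTOR is a protein kinase that couples growth to nutrients and growth factors. With Raptor (Rptor) and the shared subunit mLST8 it forms mTORC1, and with Rictor and mLST8 it forms mTORC2. The TSC1-TSC2 complex holds the small GTPase Rheb inactive, active Rheb switches mTORC1 on, and mTORC1 phosphorylates S6 kinases and 4E-BP1 to promote protein synthesis. Rapamycin can inhibit mTORC1 as a complex with FKBP12, the protein encoded by Fkbp1a. Most of this control acts on proteins, which these arrays did not measure.

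An array held values for 30649 to 33615 probes, and pairs of arrays correlated at 0.690 to 0.875 over the 25745 probes measured on every array. Of 10 fibroblast markers, 8 were higher than the reference in control cells and none was lower, with a median log2 ratio of 1.33, whereas 3 of 4 measured leukocyte markers were lower, with a median of -1.23 (limma, Benjamini-Hochberg adjusted p below 0.05). Of 4 epithelial markers, 2 were called lower and 0 higher. The 1 tested endothelial marker, at 0.29, and 1 of 2 tested muscle markers were called higher. Over all genes, 26.5% were called higher and 19.6% lower in that comparison. At 10 nM, 100 nM and 1 µM the fibroblast markers differed from control by medians of -0.08, -0.03 and -0.29, the leukocyte markers by 0.50, -0.04 and 0.31 and 4 epithelial markers by 0.23, -0.09 and 0.39. None of these markers was called at any dose. At 1 µM, 8 of 10 fibroblast markers, 0 of 4 leukocyte markers and 1 of 4 epithelial markers were below 0, beside 53.0% of all genes. Whether these shifts have a part in any value below was not tested. In such bulk samples, fewer cells of a type and less RNA per cell cannot be told apart. Precision is limited by the number of arrays, and a p-value reflects only how these samples spread, because nothing in the labels says that replicates were separate cultures.

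No core mTOR gene passed the test at any dose of Shld1. At 10 nM, 100 nM and 1 µM, 0 of 9 genes passed at a Benjamini-Hochberg adjusted p of 0.05 (limma, 3 arrays a group), and 0 of 9 had an unadjusted p below 0.05. Among all 14524 genes tested, 0% were called at each of these doses, while 2.48%, 3.02% and 4.26% had an unadjusted p below 0.05. With 1 value per probe in place of 1 per gene, 0%, 0% and 0.00329% of 30357 probes were called, the last being 1 probe without a gene symbol, and 812, 980 and 1284 (2.67%, 3.23% and 4.23%) had an unadjusted p below 0.05. The mean of the 3 doses against control likewise called 0 of 9 core genes and 0% of all genes, of which 3.00% had an unadjusted p below 0.05, and an F test over the doses called 0 of 9 and 0%, against 2.84% unadjusted.

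Some estimates for the core genes exceeded their standard errors, such as 0.26 for Rictor at 1 µM (standard error 0.18). None was clear of 0. Over 9 genes and 3 doses, all 27 changes had 95% intervals that held 0 and that lay within a doubling in either direction. Over all genes, intervals lay within a doubling for 84.8% at 10 nM, 84.8% at 100 nM and 83.0% at 1 µM. The core genes' median change was -0.03 at 10 nM, 0.05 at 100 nM and 0.09 at 1 µM on the log2 scale, beside -0.01, 0.02 and -0.02 over all genes. Their median change in size, without sign, was 0.09, 0.08 and 0.13, beside 0.13, 0.13 and 0.15 over all genes. How large a change the intervals still allowed differed by gene. Those of Tsc1, the widest, reached a 1.77-fold rise and a 1.75-fold fall, whereas those of Rheb reached only a 1.31-fold rise and a 1.32-fold fall. These bounds are for the gene values. Tsc1 probe 26395, left out of its gene value, had intervals that reached below a halving.

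**Figure D1:**
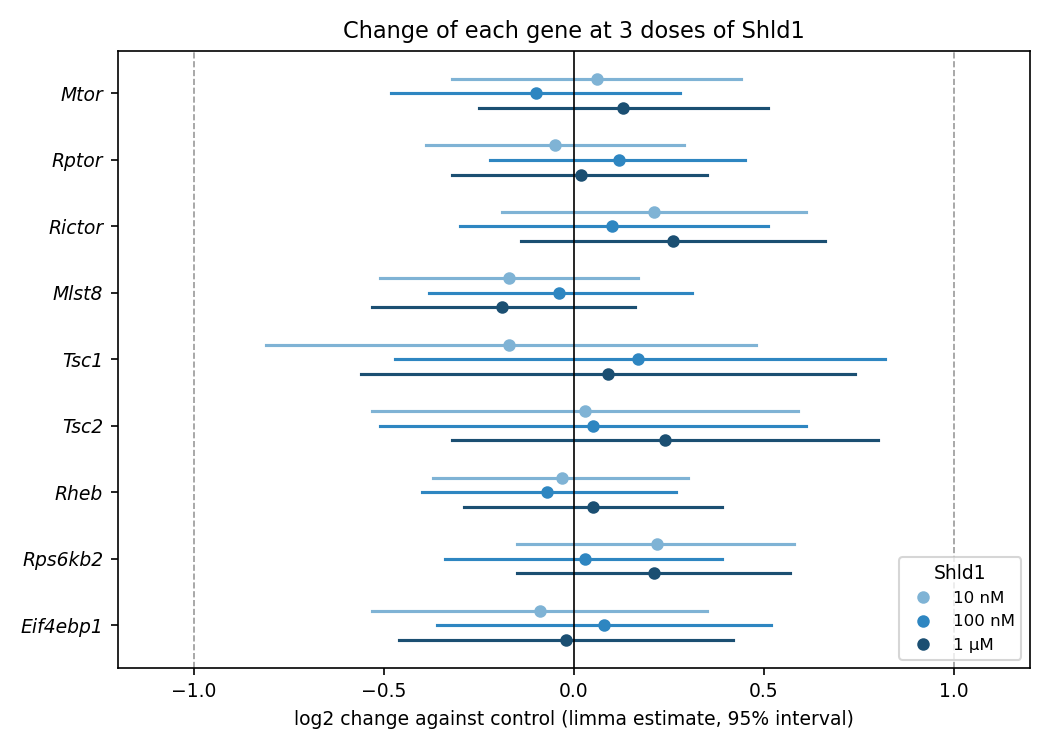
The log2 change of each of the 9 genes against control (x axis) at 10 nM, 100 nM and 1 µM Shld1 (light to dark blue), as limma estimates with 95% intervals from 3 arrays a group; dashed lines mark a doubling and a halving. All 27 intervals cross 0, and those of Tsc1 and Tsc2 are the widest.

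Mtor, the kinase itself, had log2 ratios to the reference of -0.17, -0.60 and -0.64 in control cells, -0.59, -0.48 and -0.16 at 10 nM, -0.74, -0.41 and -0.57 at 100 nM and -0.30, -0.31 and -0.40 at 1 µM. Control replicate 1 was nearly as high as the highest treated array, so the control values spanned nearly the range of all 12. Against control, the changes were 0.06, -0.10 and 0.13 at the 3 rising doses (SE 0.17 each, limma adjusted p at least 0.999). All 3 arrays at 1 µM lay above all 3 at 100 nM, by a narrow margin (-0.40 against -0.41). At either Mtor probe taken alone, these groups overlapped. The difference of the gene value between these doses was 0.23 (SE 0.17, unadjusted p = 0.203 in the limma fit). Of the 12984 genes measured on every array, 4.41% also had 1 µM wholly above 100 nM.

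Rptor encodes the subunit that brings substrates to mTORC1. Its log2 ratios were -0.02, -0.31 and -0.18 in control cells, -0.43, -0.08 and -0.14 at 10 nM, -0.22, -0.06 and 0.12 at 100 nM and -0.27, -0.12 and -0.07 at 1 µM. The 4 groups overlapped throughout, and the changes from control were -0.05, 0.12 and 0.02 (SE 0.15 each).

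Mlst8, shared by both complexes, read 0.28, 0.48 and 0.40 in control cells, -0.02, 0.18 and 0.48 at 10 nM, 0.35, 0.20 and 0.50 at 100 nM and 0.17, 0.30 and 0.12 at 1 µM. The group means differed from control by -0.17, -0.04 and -0.19 (SE 0.16 each), but at each dose at least 1 treated array lay inside the control range. Its intervals allowed at most a 1.44-fold fall and a 1.24-fold rise. The change at 10 nM was -0.05 without replicate 1 of that dose and -0.30 without its replicate 3. Probe 36036 alone read -0.15, 0.10 and 0.03 in control cells and -0.22, -0.23 and -0.39 at 1 µM. Its groups did not overlap there, with a change of -0.27 ± 0.26 (SE) and an unadjusted limma p of 0.316. Of the probes measured on every array, 3.87% likewise lay wholly below control at 1 µM. At probe 22696, the other Mlst8 probe, the groups overlapped.

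Rictor, the defining subunit of mTORC2, gave the largest estimated change from control among the core genes. The control arrays read -1.15, -0.87 and -0.89 and the 10 nM arrays -0.77, -0.86 and -0.64, so the groups did not overlap, by a narrow margin. Among genes measured on every array, 3.01% likewise lay wholly above control at 10 nM. At 100 nM the values were -1.01, -0.47 and -1.12, and at 1 µM -0.57, -0.69 and -0.87, and both sets reached into the control range. The changes were 0.21 ± 0.18, 0.10 ± 0.18 and 0.26 ± 0.18 (estimate ± SE, n = 3 a group), with unadjusted p of 0.271, 0.579 and 0.176 and adjusted p at least 0.999 in the limma fit. The change at 100 nM rested on replicate 2 of that dose: without it the change was -0.09.

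**Figure D2:**
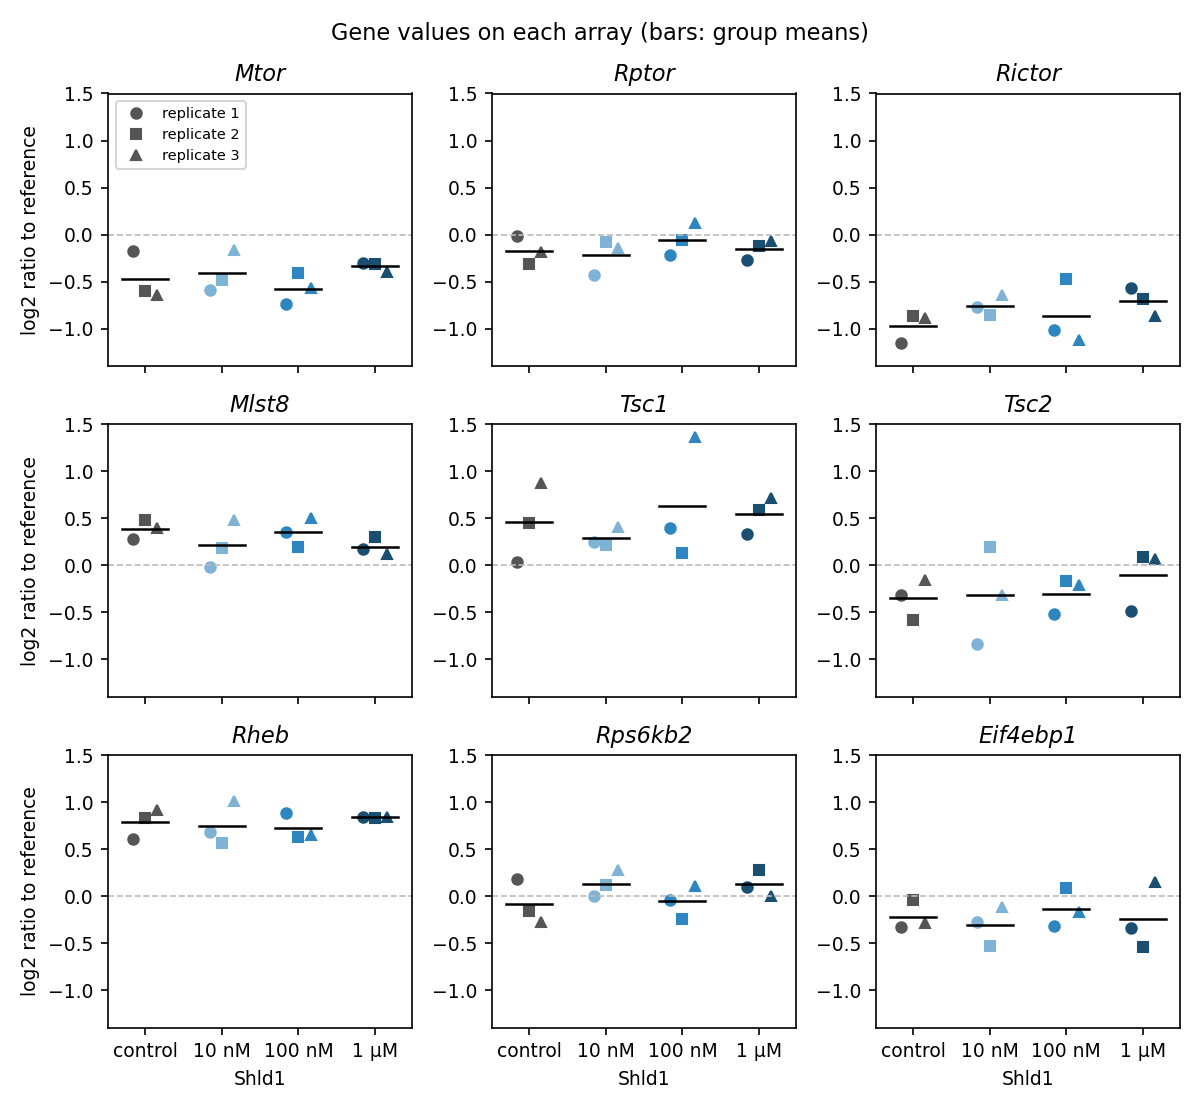
The log2 ratio to the reference (y axis) of each gene on each array, in control cells and at 3 doses of Shld1, with 1 symbol per replicate number and a bar at the group mean; the dashed line marks equality with the reference. Rictor and Mtor lie below the line on all 12 arrays and Rheb and Tsc1 above it, while Tsc1 spreads most, up to 1.36 on 1 array at 100 nM.

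Upstream, Tsc1, which stabilises the TSC complex, was the most variable core gene. It read 0.04, 0.45 and 0.88 in control cells, 0.25, 0.22 and 0.41 at 10 nM, 0.40, 0.13 and 1.36 at 100 nM and 0.33, 0.59 and 0.72 at 1 µM. The changes of -0.17, 0.17 and 0.09 (SE 0.30 each) were smaller than the spread among control arrays, with an SD of 0.42 (n = 3). Without replicate 3 at 100 nM, the high array, the change at that dose was -0.20, and without control replicate 1, the low array, the changes at 100 nM and 1 µM were -0.04 and -0.12.

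Tsc2 encodes the subunit that acts as the GTPase-activating protein for Rheb. Its single probe read -0.31, -0.58 and -0.16 in control cells, -0.84, 0.20 and -0.31 at 10 nM, -0.52, -0.17 and -0.21 at 100 nM and -0.48, 0.09 and 0.07 at 1 µM. The limma fit gave changes of 0.03, 0.05 and 0.24 (SE 0.26 each), the smallest unadjusted p being 0.366. The groups overlapped at every dose. The change at 1 µM was 0.12 without control replicate 2 and 0.43 without replicate 1 at 1 µM.

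Rheb, the GTPase that activates mTORC1, varied least. Its single probe read 0.61, 0.83 and 0.92 in control cells, 0.68, 0.56 and 1.01 at 10 nM, 0.88, 0.63 and 0.65 at 100 nM and 0.84, 0.83 and 0.84 at 1 µM. The SD over the 12 arrays was 0.14, at the 9.0th percentile of 12984 genes, whose median SD was 0.25, whereas that of Tsc1 was 0.37, at the 80.8th percentile. Changes of Rheb with dose were -0.03, -0.07 and 0.05 (SE 0.15 each).

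Downstream, Rps6kb2, which encodes S6 kinase beta-2, read 0.18, -0.16 and -0.27 in control cells, 0.00, 0.12 and 0.28 at 10 nM, -0.04, -0.24 and 0.11 at 100 nM and 0.10, 0.28 and 0.00 at 1 µM. The changes were 0.22, 0.03 and 0.21 (SE 0.17 each), and 1 control array lay within the treated range at each dose. Leaving out control replicate 1 gave a change of 0.35 at 10 nM, and leaving out control replicate 3 gave 0.12. Eif4ebp1 encodes 4E-BP1, the repressor of cap-dependent translation that mTORC1 inactivates. Its values were -0.33, -0.04 and -0.29 in control cells, -0.28, -0.53 and -0.11 at 10 nM, -0.32, 0.09 and -0.17 at 100 nM and -0.34, -0.54 and 0.15 at 1 µM. Its changes of -0.09, 0.08 and -0.02 (SE 0.20 each) were within the spread of the controls. The value at 1 µM had the other sign in 5 alternatives: arrays scaled to equal spread, quantile normalization, and otherwise single arrays left out. That value averaged probes whose estimates went opposite ways, 7171 at -0.25 ± 0.32 and 18348 at 0.20 ± 0.15 (SE). Both 95% intervals held 0. Probe 18348 read -0.20, -0.12 and -0.03 in control cells and 0.05, 0.10 and 0.12 at 1 µM, so its groups did not overlap. Of the probes measured on every array, 3.42% likewise lay wholly above control at that dose. At probe 7171 the groups overlapped.

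The 3 comparisons with control share the control arrays, so their values for a gene are not independent. Changes between neighbouring doses, which share no control, gave 0 of 9 core genes called from 10 to 100 nM and 0 of 9 from 100 nM to 1 µM, against 0% of all genes in each (limma, adjusted p below 0.05; unadjusted, 3.66% and 4.81% of all genes and 0 of 9 core genes). The core genes moved from 100 nM to 1 µM by -0.15 to 0.23, with a median of 0.12.

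Against the reference RNA the core genes stood at different ratios, which show how 3T3 cells differ from that mixture and not how abundant each transcript is. Rheb was 1.72-fold above the reference in control cells (log2 ratio 0.78 ± 0.11 SE, n = 3, limma adjusted p = 0.000180). Rictor was the lowest, 1.96-fold below (-0.97 ± 0.13, limma adjusted p = 0.000135). Mtor was 1.39-fold below (-0.47 ± 0.12, limma adjusted p = 0.00851) and Mlst8 1.31-fold above (0.39 ± 0.11, limma adjusted p = 0.0147). The other 5 did not pass: Tsc1 stood at 0.46, Tsc2 at -0.35, Eif4ebp1 at -0.22, Rptor at -0.17 and Rps6kb2 at -0.08, with adjusted p of 0.0933 to 0.582 in the limma fit. These ratios moved with single control arrays: Tsc1 stood at 0.67 without control replicate 1 and 0.25 without replicate 3, and Rptor and Tsc2 stood at -0.10 and -0.23 without replicate 2. Thus 4 of 9 core genes were called, 2 higher and 2 lower, beside 46.1% of all genes (26.5% higher, 19.6% lower).

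Those calls differed in how firmly they held. Rheb and Rictor kept theirs in every alternative processing run and with every array left out. Mtor lost its call without control replicate 2 (limma adjusted p = 0.0625) or 3 (limma adjusted p = 0.0654), and Mlst8 lost its own without the same arrays (0.0848 and 0.0581). Tsc1 passed without replicate 3 at 100 nM (limma adjusted p = 0.0300). Because dyes were not swapped, a dye effect of a probe and a difference between cells and reference cannot be told apart. Fold changes between doses do not carry that effect, as every array had the same dye orientation.

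Over all 12 arrays, with each group weighted equally, 8 of 9 core genes were called against the reference, 3 higher and 5 lower, beside 73.0% of all genes (38.6% higher, 34.4% lower). From high to low the log2 ratios were 0.77 for Rheb, 0.48 for Tsc1, 0.29 for Mlst8, 0.03 for Rps6kb2, -0.15 for Rptor, -0.23 for Eif4ebp1, -0.27 for Tsc2, -0.45 for Mtor and -0.83 for Rictor. Their standard errors ran from 0.05 (Rheb) to 0.10 (Tsc1), so neighbours such as Rptor, Eif4ebp1 and Tsc2 had intervals that overlapped. Rps6kb2 did not pass (limma adjusted p = 0.657), and Rptor (0.0277) lost its call when replicate 1 of any Shld1 dose or control replicate 2 was left out (limma adjusted p 0.0580 to 0.0722).

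**Figure D3:**
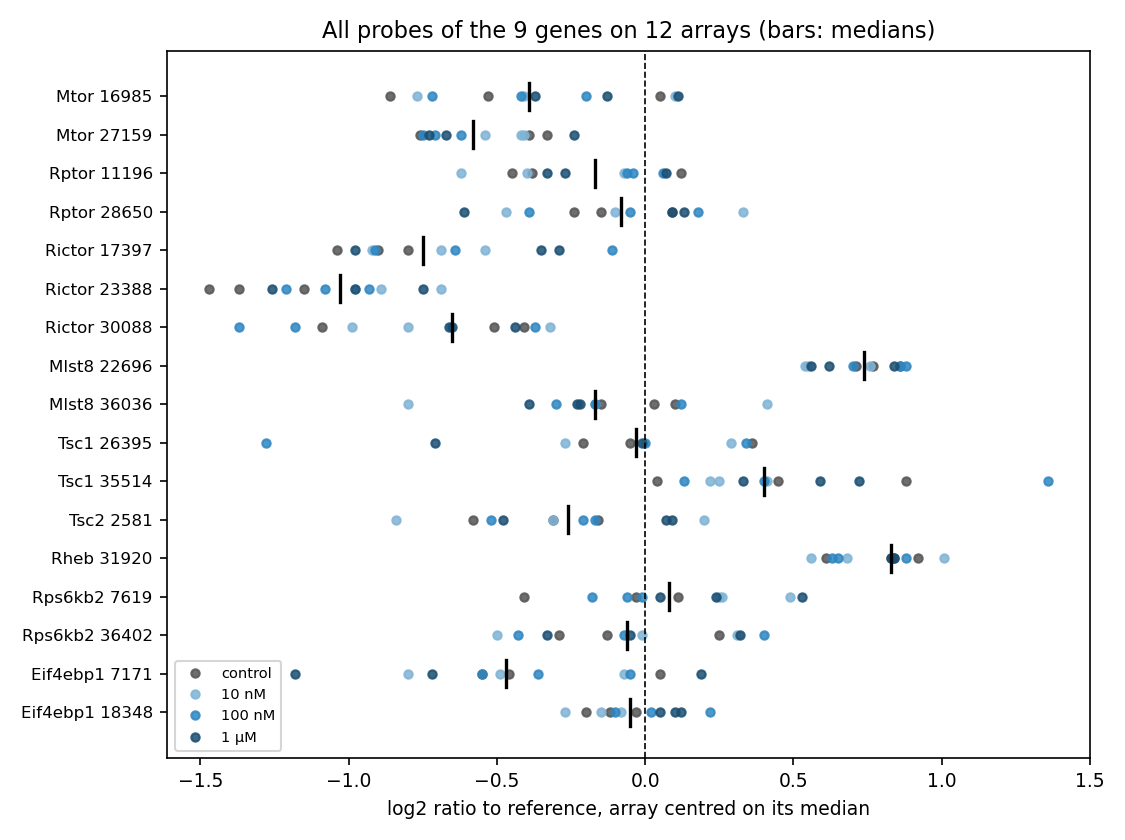
Log2 ratios to the reference (x axis) of all 17 probes, 1 row each, on 12 arrays coloured by dose, with a bar at the median. The 3 Rictor probes lie wholly below 0, whereas the Mlst8 probes fall apart, 22696 at a median of 0.74 and 36036 at -0.17.

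Several genes had more than 1 probe, and these did not always read alike. The 3 Rictor probes, numbered 17397, 23388 and 30088, were each below the reference in control cells, at -0.91, -1.33 and -0.67 (limma adjusted p = 0.00121, 1.34e-05 and 0.0175, n = 3). Both Mtor probes were below it, 27159 at -0.49 (limma adjusted p = 0.00885) and 16985 at -0.45 (0.0829). For Mlst8 the gene value averaged a probe at 0.78 (22696, limma adjusted p = 0.000160) with one at -0.01 (36036, 0.973). The Tsc1 value came from probe 35514, at 0.46, while probe 26395, measured on 10 arrays, stood at 0.04. Over 12 arrays, Eif4ebp1 probe 7171 stood at -0.42 and probe 18348 at -0.04.

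Probes of one gene also tracked each other weakly from array to array. Pairs for the same core gene correlated between -0.39 (Rptor) and 0.26 (Rictor 23388 with 30088) over 10 or 12 arrays. For the 2734 genes with 2 probes the median was 0.09, with quartiles of -0.18 and 0.34. These are descriptions over arrays that share the reference RNA.

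At single probes, a pair of core genes had an unadjusted p below 0.05 against control. Rictor probe 23388 read -1.47, -1.15 and -1.37 in control cells and -0.98, -0.89 and -0.69 at 10 nM, a change of 0.47 ± 0.18 (SE, n = 3) with an unadjusted p of 0.0222 and an adjusted p of 1.00 in the limma fit. Rps6kb2 probe 7619 read 0.11, -0.03 and -0.41 in control cells and 0.49, 0.25 and 0.26 at 10 nM, a change of 0.44 ± 0.19 (n = 3) with an unadjusted limma p of 0.0352 and an adjusted p of 1.00. In neither case did the groups overlap, as for 3.33% of the 25745 probes measured on every array. The other probes of these genes did not show that change at 10 nM, with 0.20 and -0.03 for Rictor and -0.01 for Rps6kb2. Among all probes, 2.67% had an unadjusted p below 0.05 at that dose, beside 2 of these 17.

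The remaining subunits of the complexes, paralogs of the core genes, the partners Telo2, Tti1 and Tti2, and Fkbp1a gave a similar picture. Of 13 such genes, 12 were tested and 0 were called at any dose, with median log2 changes of -0.03, 0.06 and -0.04. Deptor, an mTOR inhibitor, was not tested because only 1 array at 1 µM measured it, and its 10 values lay between -3.02 and -1.44. Fkbp1a, which encodes FKBP12, stood at 0.42 against the reference in control cells (limma adjusted p = 0.00498) and differed by 0.01 ± 0.11 (SE, n = 3 control and 9 treated arrays) for the mean of the 3 doses. Akt1s1, encoding the mTORC1 inhibitor PRAS40, differed by -0.23 ± 0.20 for that mean, Mapkap1 and Prr5, encoding mTORC2 subunits, by 0.00 ± 0.14 and 0.09 ± 0.14, and Prr5l, a paralog of Prr5, by -0.09 ± 0.15.

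Some paralogs stood on the other side of the reference from the core gene. In control cells Rheb was at 0.78 but its paralog Rhebl1 at -0.97 (limma adjusted p = 0.00118). Eif4ebp1, which was not called, was at -0.22. Eif4ebp2 was on the other side at 0.74 (limma adjusted p = 0.000130) and Eif4ebp3 on the same side at -1.03 (0.00360). Eif4ebp2 and Eif4ebp3 encode the other 4E-BP proteins. With dose, none of these passed: the mean of the 3 doses differed from control by 0.09 for Rhebl1, -0.08 for Eif4ebp2 and 0.10 for Eif4ebp3.

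Tbc1d7 and Tti2 gave the highest and the lowest estimate of the list, both at 100 nM. Tbc1d7, the third subunit of the TSC complex, read -0.13, -0.34 and -0.63 in control cells and 0.06, 0.45 and 0.33 at 100 nM, so the groups did not overlap, as for 4.14% of genes in that direction. Its change was 0.65 ± 0.19 (SE, n = 3), with an unadjusted limma p of 0.00462 and an adjusted p of 1.00. The value came from probe 25100, and probes 9096 and 14545 of the same gene gave -0.38 and -0.18 at that dose.

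Tti2 encodes a partner of TELO2 and TTI1 in the complex that helps mTOR and related kinases to mature. Its value at 100 nM differed from control by -0.78 ± 0.43 (SE, n = 3), with an unadjusted p of 0.0961 and an adjusted p of 1.00 in the limma fit, and arrays at -0.98, -2.56 and -0.66 beside -0.63, -0.49 and -0.76 in control cells. Leaving out arrays in turn moved this change between -1.15 and -0.20, the latter without replicate 2 at 100 nM. A second Tti2 probe, 34691, read -1.10 and -1.07 on the 2 control arrays that measured it and -2.61, -4.55 and -3.15 at 100 nM. That change was -2.35 ± 0.43, with an unadjusted limma p of 0.000185 and an adjusted p of 0.739. It did not pass the test over all probes. The partners Telo2 and Tti1 differed from control by -0.10 ± 0.16 and -0.18 ± 0.14 for the mean of the doses.

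Farther from the kinase the same held. In the amino acid sensing branch, which brings mTORC1 to the lysosome, 23 of 29 genes were tested and 0 were called at any dose, with medians of -0.07, 0.00 and -0.11. Flcn, which encodes folliculin, differed by -0.50 ± 0.18 at 1 µM, Sec13, a GATOR2 subunit, by -0.37 ± 0.16 at that dose, and Nprl2, a GATOR1 subunit, by 0.43 ± 0.20 at 10 nM. In the limma fit their unadjusted p were 0.0187, 0.0405 and 0.0518 and their adjusted p at least 0.999. Among genes of growth factor and energy input, 14 of 18 were tested and 0 were called, with medians of 0.01, -0.02 and -0.04. Irs1, an adaptor of insulin signalling, differed by -0.33 ± 0.15 at 1 µM, and Prkaa1, a catalytic subunit of AMPK, by 0.28 ± 0.14 at 10 nM. The insulin receptor gene Insr differed from control by -0.30 ± 0.19 at 100 nM and by 0.24 ± 0.19 at 1 µM. From 100 nM to 1 µM it differed by 0.54 ± 0.19, with an unadjusted p of 0.0145 and an adjusted p of 0.973 in the limma fit. Of 16 genes for outputs of mTOR, 14 were tested and 0 were called, with medians of -0.06, 0.05 and -0.03. Ndrg1, whose product is phosphorylated by the mTORC2-dependent kinase SGK1, differed by 0.47 ± 0.23 at 10 nM, Grb10, an mTORC1 substrate, by -0.41 ± 0.31 at 1 µM and Larp1, a regulator of ribosomal protein mRNAs, by 0.14 ± 0.15 at 1 µM (each n = 3 a group, SE from limma). The F test over the doses gave these 9 genes adjusted p of 1.00 each (limma).

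**Figure D4:**
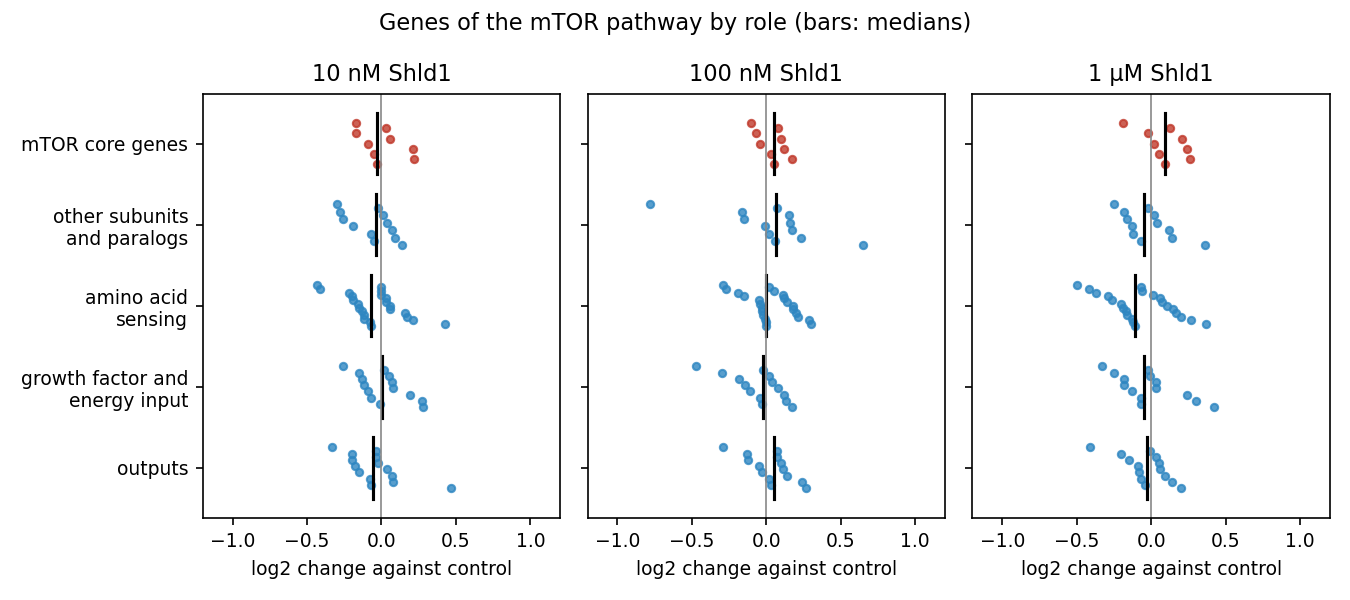
The log2 change against control (x axis) of every tested gene of the mTOR pathway, by role (rows) and dose (panels); each point is 1 gene and bars are medians. The row of other subunits and paralogs also holds Telo2, Tti1, Tti2 and Fkbp1a. Medians lie between -0.11 and 0.09, and the points farthest from 0 are Tti2 at -0.78 and Tbc1d7 at 0.65, both at 100 nM.

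Among all pairs of core genes, only the extreme correlations from array to array are given here, as a description. Over the 12 arrays Rptor and Tsc2 had a Pearson correlation of 0.69 (0.80 after each group's mean was removed) and Mtor and Rps6kb2 0.65 (0.59), whereas Rps6kb2 and Eif4ebp1 correlated at -0.45 (-0.41). The genes whose profile was most like that of Mtor among 12983 others were Nkiras1 (0.84), Utf1 (0.80) and Cyb5rl (0.79), over 12 arrays. Probes of the same gene tracked each other weakly, at -0.39 for Rptor, -0.06 for Mtor, -0.18 for Rps6kb2 and 0.14 for Eif4ebp1. Correlations of these gene values therefore cannot be read as shared changes of transcripts. All these points share the reference RNA and the centring of the array, and no test was made.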

How the data were processed

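The values are log2 ratios per probe and array as deposited. The log base, taken as 2, and the centring are not stated. The direction, sample (Cy5) over reference (Cy3), rests on the dyes per the labels and on the signs of the fibroblast and leukocyte markers. The other marker types had calls in both directions against the reference. If the direction of the ratios ran the other way, every sign here would turn. The authors' normalization, background correction and filters are not stated in any label or header used here, and signal over background is unknown. Blank values made up 13.3% to 21.0% of an array's 38784 probes, and array medians lay between -0.20 and -0.10. Probe names came from GEO's platform annotation: 26173 probes had 1 symbol, 28 several and 12583 none.

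Array medians were subtracted. The tests covered 30357 probes with at least 2 of 3 values in every group. For each of 14524 genes, the probes present on all 12 arrays were averaged, and where there were none the probe with most values was used. Group means were fitted over all 12 arrays by least squares on the values present, with limma 3.58.1 (R 4.3.3) moderating the variance, two-sided, and p-values adjusted by Benjamini-Hochberg over all probes or genes at 0.05. Nothing was imputed. The fit was checked on simulated data. Figures used matplotlib 3.10.9 in Python 3.11.15.

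The members and lists were chosen with earlier results of these data known. Named are all core genes, all tested subunits, paralogs and partners, per other list the 3 genes with the smallest F test p, and the 3 genes most like Mtor. What a shared replicate number stands for is not stated in the labels, so samples were not treated as paired and the number was a block only in alternatives.

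Alternatives were no centring, equal spread, quantile normalization, other probe filters, the replicate number as a fixed or random block, the groups compared alone, robust variance, array weights, another gene value and leaving out each array.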

Additional observations from a re-analysis of the deposited data

How the results depend on the processing

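No change of a core gene with dose passed under any of 23 alternatives (lowest limma adjusted p 0.849), though few had a stable sign: of 27 changes, 9 kept 1 sign in every alternative, and 37 of 621 alternative values had the other sign. Beside array omissions these were Eif4ebp1 at 1 µM, at 0.00 with equal spread and 0.01 with quantile normalization, and Mlst8 at 100 nM, at 0.03 from the single probe with most values. The ratio of Rps6kb2 to the reference over 12 arrays was -0.12 without centring.

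Leaving out each array in turn gave other signs too. Mtor then ranged from -0.06 to 0.21 at 10 nM and from -0.19 to 0.05 at 100 nM, Rptor from -0.12 to 0.06 at 10 nM and from -0.06 to 0.09 at 1 µM, Rictor from -0.09 to 0.23 at 100 nM and Mlst8 from -0.11 to 0.04 at 100 nM. Tsc1 ranged from -0.37 to 0.05, from -0.20 to 0.42 and from -0.12 to 0.30 at the 3 rising doses, Tsc2 from -0.22 to 0.29 at 10 nM and from -0.07 to 0.16 at 100 nM, and Rheb from -0.16 to 0.06, from -0.15 to 0.00 and from -0.04 to 0.12. Rps6kb2 ranged from -0.07 to 0.16 at 100 nM, and its ratio to the reference from -0.22 to 0.01 in control cells and from 0.00 to 0.05 over 12 arrays. Eif4ebp1 ranged from -0.19 to 0.02, from -0.03 to 0.18 and from -0.22 to 0.13. Other changes kept their sign but not their size, such as Mtor at 1 µM (0.04 to 0.28) and Rptor at 100 nM (0.03 to 0.20).

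Counts of called probes rested on single probes. The 1 probe called at 1 µM against control fell to 0 with the replicate block (fixed) and with the groups compared alone, and single omissions gave 0 to 3, with 0 without control replicate 1, control replicate 2 or 1 µM replicate 3, and 3 without 1 µM replicate 2. For 1 µM against 100 nM the count of 1 fell to 0 with probes of 1 value per group, the replicate block (fixed), the groups compared alone and array weights, and omissions gave 0 to 1. The F test's count of 1 fell to 0 with the replicate block (fixed) and array weights, and omissions gave 0 to 2. The array numbers in the titles run in consecutive sets by replicate number, and what a set shares is not stated in the labels. Deviations from group means correlated at -0.10 to 0.25 for the 18 same-number pairs, 9 of them above 0.1, and at -0.31 to 0.21 for other pairs. For 8 of 12 arrays the closest array of another group had the same number, which is a hint from the data and not from the design. With the replicate block no core gene passed at any dose, as without it.

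Of the calls in control cells against the reference, that of Mtor was lost with the groups compared alone (limma adjusted p 0.0527) and from the single probe with most values (0.0784), and that of Mlst8 without centring (0.109) and with the groups compared alone (0.0573). Rptor (0.0424) and Tsc2 (0.0483) passed without centring and Tsc1 with the replicate block (0.0348). The cause of these differences was not tested. Fits of only the groups compared could not be made for the mean of the doses, the F test and the 12 arrays, and the other gene value applies to genes alone. Signal over background is unknown, so no dim probe was left out.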
